A study of Mus musculus with 12 samples.

Results

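Nsg2, Cd163l1, Drc1, Clip3, Mcoln2 and Hdac4 are 6 of the 37991 genes measured by bulk RNA sequencing in bone marrow natural killer (NK) cells, innate lymphocytes able to destroy infected cells and tumour cells. They were chosen by name because their level was higher in cells with Id2 targeted than in control cells and because they lie outside the genes by which NK cells are usually described. The values that chose them are therefore given for that contrast as a description, with no test. All 6 had an FPKM (fragments scaled to gene length and to library size) of 1 or more in at least 3 libraries, as had 12384 genes in all, and these 12384 were tested. For Cd163l1, every library at 1 FPKM or more came from a group with Id2 targeted. Drc1 reached 3 such libraries only through those groups as well.

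The 12 libraries fall into 4 groups of 3. DKO cells carried floxed Id2 and floxed Tcf7, Id2KO cells floxed Id2, and Tcf1KO cells floxed Tcf7, each with Ncr1Cre, in which Cre is driven by the gene of the NK receptor Ncr1. Ctrl cells had no Cre and carried floxed Id2, with floxed Tcf7 as well according to the series design but not according to the sample protocol. All mice were C57Bl/6, their age is not given, and the cells were sorted as NK1.1+CD49b+ (the protocol writes CD9b). The 3 samples of a group are called independent, but no source says that each is a different mouse, so the p-values cover no more than the spread among these 3, which may be technical. Ncr1Cre acts once a cell has become an NK cell, so the comparison concerns loss in committed cells, and any cell that escaped deletion stays in the sort.

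Id2 encodes an inhibitor that pairs with E proteins, the transcription factors made from Tcf3, Tcf12 and Tcf4, and keeps them from binding DNA at the short motif called the E box. NK cells and other innate lymphocytes need it to hold E protein activity down, whereas thymocytes and B cells use E proteins to run their own programs. The protein of Tcf7, TCF-1, acts as a transcription factor in early T cells and immature NK cells. The question the design addresses is what Id2 loss changes in NK cells, and which of those changes need TCF-1.

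Id2 itself was measured at 48.8, 41.2 and 36.8 FPKM in DKO, at 17.8, 17.1 and 19.2 FPKM in Id2KO, at 114, 102 and 126 FPKM in Tcf1KO, and at 124, 163 and 170 FPKM in Ctrl. Both groups with Id2 targeted lay below both groups without it, and the mean in DKO was 2.34 times that in Id2KO. Tcf7 averaged 62.4 ± 9.94 FPKM in DKO, 84.8 ± 6.33 in Id2KO, 34.98 ± 4.65 in Tcf1KO and 40.9 ± 4.81 in Ctrl (SD, n = 3 each). A value over the whole gene does not show the deleted part, so it does not check the Tcf7 labels. All 13 NK identity markers, among them Ncr1, were above 1 FPKM in each library (lowest value 2.02 FPKM, for Fcgr3), and libraries held between 13975523 and 20208160 reads recovered from the FPKM steps.

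The sequence around each gene's start was searched for E box motifs. The windows run from 250 bases before to 50 bases after the RefSeq start on GRCm38.p6. The motifs were CAGCTG, its own complement, and CAGGTG with its complement CACCTG. Both are forms of the general E box CANNTG, so every match is also a CANNTG match. The 3 windows printed are those of the genes that were nearest to silent in Ctrl, Cd163l1 and Drc1, and of Nsg2, the one with the most matches. Capitals mark the matches to these motifs, and all 3 windows read 5′ to 3′ on the plus strand.
Nsg2, chr11:32000169-32000468: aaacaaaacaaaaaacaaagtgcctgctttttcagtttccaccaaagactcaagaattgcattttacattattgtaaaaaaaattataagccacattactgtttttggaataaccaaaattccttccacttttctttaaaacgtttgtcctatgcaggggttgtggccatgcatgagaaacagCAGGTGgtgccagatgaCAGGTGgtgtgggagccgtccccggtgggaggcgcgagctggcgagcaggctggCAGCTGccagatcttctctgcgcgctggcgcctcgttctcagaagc
Cd163l1, chr7:140218017-140218316: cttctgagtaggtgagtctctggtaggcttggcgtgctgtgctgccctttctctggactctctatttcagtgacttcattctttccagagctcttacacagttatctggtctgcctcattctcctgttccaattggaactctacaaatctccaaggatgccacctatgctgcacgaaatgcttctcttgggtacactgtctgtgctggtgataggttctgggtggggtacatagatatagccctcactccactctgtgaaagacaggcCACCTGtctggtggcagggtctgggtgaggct
Drc1, chr5:30281143-30281442: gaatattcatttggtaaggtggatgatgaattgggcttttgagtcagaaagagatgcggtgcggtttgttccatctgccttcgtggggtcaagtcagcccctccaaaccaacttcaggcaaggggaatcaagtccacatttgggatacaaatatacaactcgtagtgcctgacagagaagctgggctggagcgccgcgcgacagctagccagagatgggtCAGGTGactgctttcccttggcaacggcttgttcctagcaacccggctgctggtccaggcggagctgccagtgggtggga
The Nsg2 window held 3 matches, at -67, -50 and 5 relative to the start. A second RefSeq start of Nsg2 had none in its window. Cd163l1 held 1 match at 19, Drc1 1 at -30 and Mcoln2 1 at -170, while Clip3 and Hdac4 held none. The Hdac4 window, chr1:92180292-92180591, lies inside the gene span, which on the minus strand starts at 92195699. The Mcoln2 window, chr3:146149924-146150223, also lies inside its gene span, which on the plus strand starts at 146149833. Its match at -170 from the RefSeq start is therefore downstream of the start of that span. Neither window describes the sequence at the start of its gene span. Of all 32851 promoter windows of the same length, 32.9% held at least 1 match and 1.39% held at least 3. CTTTGA or its complement TCAAAG, 1 form of the core that TCF-1 and its relative LEF-1 recognise, was in none of the members' windows. It was in 16.0% of all windows. Other forms of that core were not searched, so the windows are not shown to lack TCF-1 motifs. A match describes these letters only and is not evidence of binding.

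Nsg2 encodes a small membrane protein of endosomes described in neurons, where its family sorts receptors, and its RNA is also known from mouse thymocytes and naive T cells. The gene (ENSMUSG00000020297) lies at chr11:32000463-32059202 on the plus strand of GRCm38. Its level was 18.3, 17.3 and 22.9 FPKM in DKO, 32.4, 38.5 and 29.2 FPKM in Id2KO, 11.1, 15.9 and 9.71 FPKM in Tcf1KO, and 6.80, 5.22 and 6.47 FPKM in Ctrl. No 2 groups overlapped, and the order was Id2KO, DKO, Tcf1KO, Ctrl. Nsg2 had the highest level of the 6 genes per unit of length in every group. At 6.16 ± 0.834 FPKM in Ctrl (SD, n = 3), above 66.1% of tested genes, it was not silent in control NK cells.

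Cd163l1 encodes a scavenger receptor with cysteine-rich domains that marks subsets of gamma delta T cells in mice. The gene (ENSMUSG00000025461) lies at chr7:140218267-140231145 on the plus strand. It was at 2.04, 2.44 and 1.23 FPKM in DKO, at 5.54, 7.28 and 5.26 FPKM in Id2KO, at 0.114, 0 and 0.287 FPKM in Tcf1KO, and at 0.457, 0.571 and 0 FPKM in Ctrl. The groups with Id2 targeted lay above both others, Id2KO lay above DKO, and Tcf1KO and Ctrl overlapped. These low values rest on 11, 0 and 40 reads in Tcf1KO and 51, 55 and 0 reads in Ctrl. A count of 0 allows up to 3 reads, or 0.0234 FPKM in the Tcf1KO library and 0.0267 FPKM in the Ctrl library, counting error only.

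Drc1 encodes a subunit of the nexin-dynein regulatory complex, which links the microtubule doublets of motile cilia, a structure that lymphocytes do not build. The gene (ENSMUSG00000073102) lies at chr5:30281388-30366695 on the plus strand. Its level was 3.41, 1.66 and 2.14 FPKM in DKO, 10.7, 17.8 and 5.36 FPKM in Id2KO, 1.43, 0.260 and 0.259 FPKM in Tcf1KO, and 1.29, 0.230 and 0.419 FPKM in Ctrl. Id2KO lay above DKO, and DKO above the other 2 groups, which overlapped. The Id2KO libraries had the largest SD among the 6 genes and 4 groups on the FPKM scale, with a mean of 11.3 ± 6.24 FPKM (SD, n = 3). Only 1 library in each of Tcf1KO and Ctrl reached 1 FPKM.

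Clip3 encodes a protein with CAP-Gly domains, the fold that binds microtubule ends, which sits at the trans-Golgi network. The gene (ENSMUSG00000013921) lies at chr7:30291728-30308367 on the plus strand. Its level was 9.14, 7.33 and 7.25 FPKM in DKO, 17.1, 16.9 and 11.3 FPKM in Id2KO, 4.93, 2.77 and 4.95 FPKM in Tcf1KO, and 5.47, 2.42 and 4.38 FPKM in Ctrl. The order was Id2KO, DKO and then Tcf1KO together with Ctrl, whose libraries overlapped. The mean in Ctrl was above that of 54.0% of tested genes.

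Mcoln2 encodes TRPML2, a cation channel of recycling endosomes and lysosomes found in B cells and macrophages. The gene (ENSMUSG00000011008) lies at chr3:146149833-146195513 on the plus strand. Its level was 8.27, 10.8 and 7.71 FPKM in DKO, 11.6, 17.4 and 11.4 FPKM in Id2KO, 4.79, 5.46 and 3.11 FPKM in Tcf1KO, and 4.79, 3.25 and 4.76 FPKM in Ctrl. Tcf1KO and Ctrl again overlapped, DKO lay above both, and the lowest Id2KO library stood just above the highest DKO library. Its Ctrl mean was above that of 55.3% of tested genes.

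Hdac4 encodes a class IIa histone deacetylase, a repressor partner of MEF2 transcription factors that shuttles between cytoplasm and nucleus. The gene (ENSMUSG00000026313) lies at chr1:91928779-92195699 on the minus strand. Its level was 6.86, 8.40 and 7.51 FPKM in DKO, 8.49, 10.05 and 8.10 FPKM in Id2KO, 6.61, 6.55 and 6.26 FPKM in Tcf1KO, and 4.24, 3.19 and 3.50 FPKM in Ctrl. DKO and Id2KO overlapped, and Tcf1KO lay between them and Ctrl without touching either. Hdac4 was above 50.5% of tested genes in Ctrl, so by level only Cd163l1 and Drc1, above 2.2% and 5.9% of tested genes, were near silent there. The word ectopic describes those 2 genes and not the other 4.

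**Figure D1:**
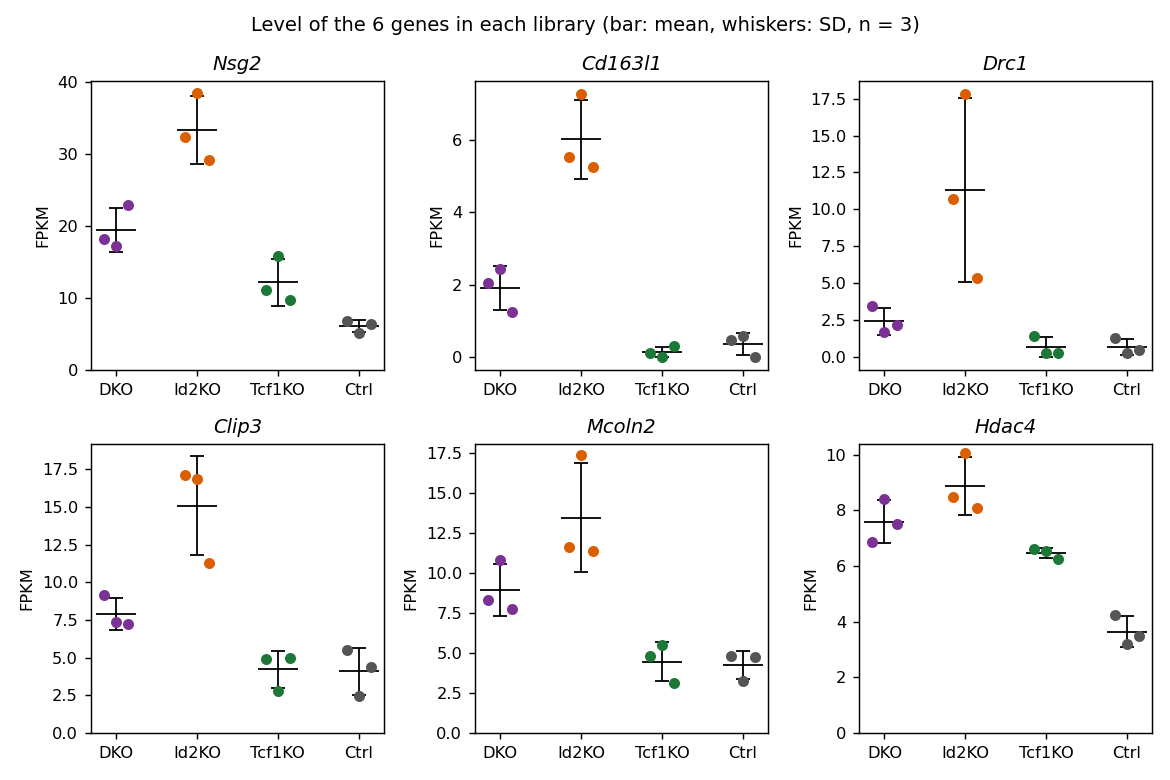
FPKM (vertical axis, a separate linear scale for each gene) of the 6 genes in DKO, Id2KO, Tcf1KO and Ctrl libraries, left to right. Points are libraries, horizontal bars are means and whiskers the SD (n = 3). Id2KO has the highest mean in every panel, Cd163l1 and Drc1 are near 0 in Tcf1KO and Ctrl, and Nsg2 and Hdac4 in Tcf1KO lie above Ctrl.

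The comparison of DKO with Tcf1KO asks whether the genes also differ with Id2 targeted when Tcf7 is targeted in both groups. The rule that chose the genes names none of its 6 libraries, so it is the one comparison in which they were tested. The test is not fully independent of that choice. Its spread was estimated from all 12 libraries, Id2KO and Ctrl included, and the genes were chosen with earlier results of these data known. All 6 genes were higher in each DKO library than in every Tcf1KO library, and 5.74% of tested genes did the same. The ratio of mean FPKM was 14.2 for Cd163l1, 3.70 for Drc1, 2.0 for Mcoln2, 1.88 for Clip3, 1.59 for Nsg2 and 1.17 for Hdac4. None passed an adjusted p of 0.05 with limma and Benjamini-Hochberg adjustment over all tested genes, a threshold that 0.0565% of them passed. At an unadjusted p under 0.05, 5 of the 6 were higher, as were 2.96% of all tested genes. Cd163l1 and Drc1 are among these 5, and both passed the filter on low values only through the groups with Id2 targeted. Their place in that count is therefore not independent of the filter.

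Cd163l1 averaged 1.90 ± 0.613 FPKM in DKO and 0.134 ± 0.145 FPKM in Tcf1KO (SD, n = 3 each), a fitted difference of 1.34 ± 0.25 on the log2(FPKM + 1) scale (SE, limma adjusted p = 0.202). That scale understates the change of genes this low, and the difference was 3.26 with a pseudocount of 0.1. Mcoln2 averaged 8.92 ± 1.64 FPKM in DKO and 4.45 ± 1.21 FPKM in Tcf1KO, a difference of 0.88 ± 0.24 (limma adjusted p = 0.369). Nsg2 averaged 19.5 ± 3.01 FPKM in DKO and 12.2 ± 3.26 FPKM in Tcf1KO, a difference of 0.65 ± 0.20 (limma adjusted p = 0.457).

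The microtubule genes had wider errors. Clip3 differed by 0.80 ± 0.27 (limma adjusted p = 0.567), with 7.91 ± 1.07 FPKM in DKO and 4.22 ± 1.25 FPKM in Tcf1KO. Drc1 differed by 1.09 ± 0.42 (limma adjusted p = 0.643), with 2.40 ± 0.907 FPKM in DKO and 0.650 ± 0.676 FPKM in Tcf1KO, or by 2.04 with a pseudocount of 0.1. Hdac4 showed the smallest difference, 0.20 ± 0.15 (limma adjusted p = 0.878), with 7.59 ± 0.772 FPKM in DKO and 6.47 ± 0.186 FPKM in Tcf1KO. The median difference of the 6 genes was 0.84, beside -0.01 for all tested genes. An exact permutation test of 3 libraries against 3 cannot give a two-sided p below 0.1, so single genes could not be tested that way.

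The comparison of Id2KO with Ctrl is the one by which the genes were chosen. The mean in Id2KO was 17.6 times that in Ctrl for Cd163l1, 17.5 times for Drc1, 5.41 times for Nsg2, 3.69 times for Clip3, 3.15 times for Mcoln2 and 2.44 times for Hdac4. On the fitted log2 scale the differences were 2.82 ± 0.42 for Drc1, 2.40 ± 0.25 for Cd163l1, 2.26 ± 0.20 for Nsg2, 1.69 ± 0.27 for Clip3, 1.44 ± 0.24 for Mcoln2 and 1.09 ± 0.15 for Hdac4 (SE). Every Id2KO library lay above every Ctrl library for all 6, which the choice of genes makes likely, and 7.11% of all tested genes did the same. For each of the 6 genes the fitted difference was smaller between DKO and Tcf1KO than between Id2KO and Ctrl. Choosing genes by the difference between Id2KO and Ctrl makes this order likely too, and whether the differences need TCF-1 was not tested. The fit included the contrast between these differences. Its p-values are not reported, because the genes were picked from Id2KO and Ctrl.

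**Figure D2:**
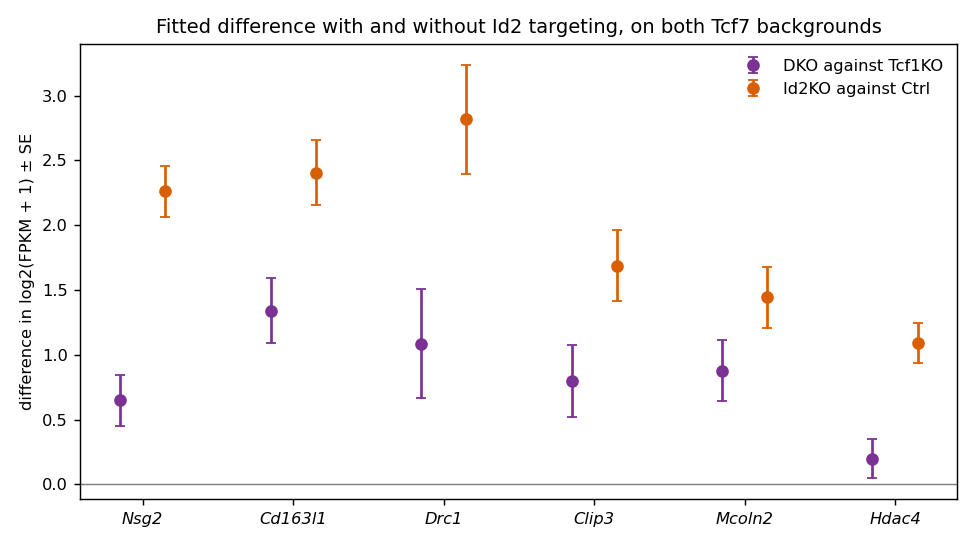
Fitted difference in log2(FPKM + 1) with its SE for each gene, DKO minus Tcf1KO (left point) and Id2KO minus Ctrl (right point). All 12 points are above 0, and the left point is below the right one for every gene, from 0.20 against 1.09 for Hdac4 to 1.09 against 2.82 for Drc1. The genes were chosen by the contrast of the right point, which makes this order likely.

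**Figure D3:**
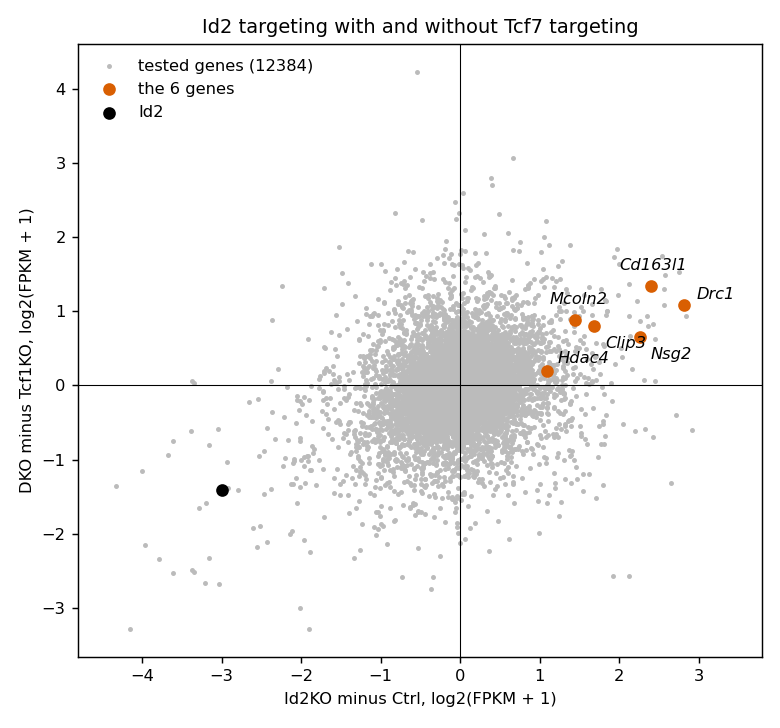
The same differences for all 12384 tested genes, Id2KO minus Ctrl on the horizontal axis and DKO minus Tcf1KO on the vertical axis, both in log2(FPKM + 1). The 6 genes (orange) lie in the upper right part, where the horizontal position is fixed by how they were chosen, and Id2 (black) lies at lower left.

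DKO shares its comparison groups with that choice when it is set against Ctrl or Id2KO, so these values are a description. Against Ctrl, DKO was higher by 1.51 ± 0.20 for Nsg2, 1.12 ± 0.25 for Cd163l1, 1.07 ± 0.42 for Drc1, 0.92 ± 0.24 for Mcoln2, 0.89 ± 0.15 for Hdac4 and 0.85 ± 0.27 for Clip3 on the log2 scale (SE). No DKO library overlapped Ctrl for any of the 6, as for 6.28% of tested genes in that direction. Against Id2KO, DKO was lower for all 6 and without overlap for 5 (8.32% of tested genes), with log2 differences of -1.75 ± 0.42 for Drc1, -1.29 ± 0.25 for Cd163l1, -0.84 ± 0.27 for Clip3, -0.75 ± 0.20 for Nsg2 and -0.53 ± 0.24 for Mcoln2 (SE). Hdac4, at -0.20 ± 0.15, was the one that overlapped. DKO cells also held more Id2 RNA than Id2KO cells, and the part of this in the gap was not tested.

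Nsg2 and Hdac4 were also higher in each Tcf1KO library than in any Ctrl library, by 0.87 ± 0.20 and 0.69 ± 0.15 on the log2 scale, and 4.96% of tested genes were likewise without overlap and higher. Nsg2 averaged 12.2 ± 3.26 FPKM in Tcf1KO and 6.16 ± 0.834 FPKM in Ctrl, and Hdac4 6.47 ± 0.186 FPKM in Tcf1KO and 3.64 ± 0.543 FPKM in Ctrl (SD, n = 3 each). The other 4 overlapped, with log2 differences of 0.05 ± 0.27 for Clip3, 0.04 ± 0.24 for Mcoln2, -0.02 ± 0.42 for Drc1 and -0.23 ± 0.25 for Cd163l1 (SE). These differences share the Ctrl libraries with the choice of the genes and carry no test.

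In Id2KO and in Ctrl, most of the 6 genes shared their extreme libraries. Id2KO replicate 3 was the lowest of its group for all 6 genes, and Id2KO replicate 2 the highest for 5, the exception being Clip3. In Ctrl, replicate 1 was the highest for 5 genes and replicate 2 the lowest for 5, Cd163l1 being the exception both times. In DKO the lowest library was replicate 3 for 3 genes, replicate 2 for 2 and replicate 1 for 1, and in Tcf1KO it was replicate 3 for 4 genes and replicate 2 for 2. A score of myeloid, basophil and erythroid marker levels, in the order of replicates 1 to 3, was 0.59, -0.30 and -0.73 for DKO. It was -1.47, -1.14 and -0.01 for Id2KO, 1.07, 0.77 and -0.30 for Tcf1KO, and 0.60, 1.02 and -0.11 for Ctrl. The library with the highest score was the lowest for all 6 genes in Id2KO and for 5 in Ctrl, but for 1 in DKO and 0 in Tcf1KO, where the library with the lowest score was the lowest for 3 genes and 4 genes.

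The markers behind the score also varied between groups. The summed level of the 14 myeloid and neutrophil markers ranged from 351 to 838 FPKM in DKO, from 75.6 to 1065 FPKM in Id2KO, from 1181 to 4298 FPKM in Tcf1KO and from 916 to 3651 FPKM in Ctrl. None of the 14 passed the adjusted threshold in DKO against Tcf1KO, where all were lower and 6 did not overlap (6.9% of tested genes were lower without overlap), with a median log2 difference of -1.37. The 9 erythroid markers summed to between 407 and 2558 FPKM in DKO, between 85.7 and 1788 FPKM in Id2KO, between 1258 and 3237 FPKM in Tcf1KO and between 666 and 4532 FPKM in Ctrl. The 9 basophil and mast cell markers summed to between 57.8 and 594 FPKM in DKO, between 19.1 and 97.2 FPKM in Id2KO, between 51.9 and 754 FPKM in Tcf1KO and between 169 and 634 FPKM in Ctrl. With the score as a term in the fit, and also without the 3 libraries of lowest array weight (Id2KO replicate 3, DKO replicate 3 and Ctrl replicate 2), DKO stayed above Tcf1KO for all 6 genes and none passed the threshold. In bulk cells, a different share of a cell type and a different amount of RNA per cell cannot be told apart.

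Markers of the cells in which the genes are best known differed in level. Among macrophage markers, Cd68 averaged 28.2 ± 19.2 FPKM in DKO, 18.0 ± 8.65 in Id2KO, 30.6 ± 16.4 in Tcf1KO and 20.5 ± 4.61 in Ctrl (SD, n = 3 each). Fcgr1 averaged 0.558 FPKM in DKO, 0.363 in Id2KO, 0.792 in Tcf1KO and 0.874 in Ctrl. Csf1r, of the myeloid list, averaged 4.12 FPKM in DKO, 3.17 in Id2KO, 5.75 in Tcf1KO and 4.44 in Ctrl. The scavenger receptor gene Msr1 averaged 0.162 FPKM in DKO, 0.352 in Id2KO, 0.869 in Tcf1KO and 1.06 in Ctrl. Marco, another, averaged 0.0337 FPKM in DKO, 0.767 in Id2KO, 0.648 in Tcf1KO and 0.372 in Ctrl. Of the 12 gamma delta T cell markers, 7 were under 1 FPKM in each library of Id2KO, 7 in Ctrl, 6 in DKO and 6 in Tcf1KO. Blk and Il23r were at 0 in all 3 Id2KO libraries, and Sox13 and Il17a averaged 0.0232 and 0.0200 FPKM there. Il23r was also at 0 in DKO and Tcf1KO. Of the same list, 5830411N06Rik was higher in Id2KO, with 62 reads there, 1 in Ctrl and 0 in both DKO and Tcf1KO. The 12 markers summed to between 464 and 530 FPKM in DKO, between 182 and 342 FPKM in Id2KO, between 417 and 502 FPKM in Tcf1KO and between 163 and 246 FPKM in Ctrl. Tcrg-C1, a receptor gene of the same list, averaged 113 ± 24.6 FPKM in DKO, 75.3 ± 16.0 in Id2KO, 74.2 ± 16.2 in Tcf1KO and 41.2 ± 10.6 in Ctrl (SD, n = 3 each). Its log2 differences were 0.60 in DKO against Tcf1KO and 0.86 in Id2KO against Ctrl. In the same order they were 0.31 and -0.03 for Tcrg-C2 and -0.25 and 0.23 for Tcrg-C4. They were -0.40 and -1.02 for Zbtb16, -0.14 and -0.57 for Maf and 0.04 and 0.25 for Etv5. None of these 6 tested genes of the list was called in either contrast. Among naive T cell and thymocyte markers other than Nsg2, 7 of 13 were tested and none was called in DKO against Tcf1KO, with 6 positive and a median log2 difference of 0.11. Ccr7, a homing receptor, averaged 4.54 ± 1.69 FPKM in DKO, 5.48 ± 1.83 in Id2KO, 1.86 ± 1.56 in Tcf1KO and 3.61 ± 2.05 in Ctrl, with log2 differences of 1.06 ± 0.44 in DKO against Tcf1KO and 0.54 ± 0.44 in Id2KO against Ctrl (SE, limma adjusted p = 0.692 and 0.762). Lef1 averaged 5.41 ± 1.07 FPKM in DKO, 5.63 ± 2.40 in Id2KO, 5.82 ± 1.09 in Tcf1KO and 5.72 ± 1.30 in Ctrl. Tcf7, of the same list, was the one gene called in Id2KO against Ctrl (log2 difference of 1.04 ± 0.16, limma adjusted p = 0.0279). Its adjusted p ranged from 0.00327 to 0.285 over the 24 settings and was over 0.05 without any 1 of Id2KO replicates 1 to 3, Ctrl replicates 1 and 2, DKO replicate 2 and Tcf1KO replicates 2 and 3, without the 3 libraries of lowest array weight, with the score as a term and in a fit of the compared groups alone. Ptcra, which thymocytes need to build the pre-T cell receptor, was at 0 in all 12 libraries. All 10 neuronal markers, among them Snap25 and Syp, stayed below 1 FPKM in each library, with 0.564 FPKM as the highest value. Of 11 B cell markers, 8 were under 1 FPKM in each library of Id2KO, 8 in Ctrl, 7 in DKO and 5 in Tcf1KO. Ighm, of the B cell list, averaged 383 ± 33.9 FPKM in Id2KO and 190 ± 48.6 in Ctrl (SD, n = 3 each). The log2 difference of Ighm in Id2KO against Ctrl was 1.03 ± 0.18 (SE, limma adjusted p = 0.0596). Alpha beta T cell markers, several of which NK cells express, summed to between 1941 and 2399 FPKM in DKO, between 1377 and 1835 FPKM in Id2KO, between 1490 and 1983 FPKM in Tcf1KO and between 1067 and 1219 FPKM in Ctrl. Of 14 tested, none was called in DKO against Tcf1KO, where 1 was higher and 1 lower without overlap. In Id2KO against Ctrl 4 were higher without overlap and 1 was called, the CD3 chain gene Cd3d, at 67.2, 103 and 61.5 FPKM in Id2KO and 29.8, 28.0 and 26.6 FPKM in Ctrl (log2 difference of 1.39 ± 0.20, limma adjusted p = 0.0183). Its adjusted p ranged from 0.0116 to 0.222 over the 24 settings, and it was over 0.05 without Id2KO replicate 1, without any 1 Ctrl library and in the same 3 other settings as for Tcf7. The part of gamma delta, naive or alpha beta T cells, thymocytes, neurons or B cells in the members' levels was not tested, and the score holds none of their markers.

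Relatives of the 6 genes were compared in the same way, and none of the tested ones was called in either direction in DKO against Tcf1KO or in Id2KO against Ctrl. The background was 0.0565% of tested genes in the first and 0.178% in the second. Of the NSG family, Nsg1 averaged 0.778 ± 0.108 FPKM in DKO, 0.614 ± 0.199 in Id2KO, 0.305 ± 0.0649 in Tcf1KO and 1.10 ± 0.515 in Ctrl (SD, n = 3 each), and Caly was at 0 in 11 of the 12 libraries. Neither was abundant enough to be tested. Among the 15 scavenger receptor genes in the table, 8 were tested, and their median log2 difference was -0.38 in DKO against Tcf1KO and -0.06 in Id2KO against Ctrl. Cd163, a macrophage scavenger receptor, averaged 9.33 ± 10.4 FPKM in DKO, 2.32 ± 1.46 in Id2KO, 8.02 ± 3.64 in Tcf1KO and 5.57 ± 4.42 in Ctrl.

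Most partners of Drc1 in motile cilia were too low to be tested. Iqcg, of the same complex, was among them, and averaged 1.07 ± 0.852 FPKM in DKO, 0.761 ± 0.546 in Id2KO, 0.364 ± 0.0561 in Tcf1KO and 0.172 ± 0.0888 in Ctrl (SD, n = 3 each). Its DKO libraries lay above its Tcf1KO libraries, and its Id2KO libraries above its Ctrl libraries, without overlap. Of 10 further genes of the nexin-dynein regulatory complex only Efcab2 was tested, at 0.924 ± 0.515 FPKM in DKO, 0.622 ± 0.424 in Id2KO, 1.08 ± 0.433 in Tcf1KO and 2.23 ± 2.54 in Ctrl (SD, n = 3 each). Its log2 difference was -0.13 ± 0.46 in DKO against Tcf1KO (SE) and -0.75 ± 0.46 in Id2KO against Ctrl. Of 20 motile cilium genes, 3 were tested and none was called. Foxj1, the master regulator of motile cilia, averaged 0.417 ± 0.658 FPKM in DKO, 0.0626 ± 0.0559 in Id2KO, 0.652 ± 0.435 in Tcf1KO and 0.516 ± 0.527 in Ctrl, and the axonemal dynein gene Dnah5 was at 0 in all 12 libraries.

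Among microtubule relatives of Clip3, Clip1 and Clip2 were tested, with log2 differences of 0.04 ± 0.18 and -0.28 ± 0.28 in DKO against Tcf1KO and of 0.06 ± 0.18 and -0.26 ± 0.28 in Id2KO against Ctrl (SE). Mcoln1, the channel of lysosomes in most cells, averaged 2.74 ± 0.183 FPKM in DKO, 2.92 ± 0.701 in Id2KO, 3.17 ± 1.37 in Tcf1KO and 2.66 ± 0.241 in Ctrl (SD, n = 3 each). Its log2 differences were -0.11 ± 0.24 and 0.08 ± 0.24 in the same contrasts. Of the 9 tested genes among other endolysosomal channels and TFEB factors, none was called, and their median log2 differences were -0.08 and -0.14. Tfeb, a transcription factor for lysosomal genes, was lower without overlap in both, as were 6.9% and 6.75% of tested genes, at 0.525 ± 0.129 FPKM in DKO against 0.848 ± 0.0880 in Tcf1KO, and at 0.603 ± 0.106 FPKM in Id2KO against 1.35 ± 0.276 in Ctrl (limma adjusted p = 0.868 and 0.382).

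The 6 tested relatives of Hdac4 among the histone deacetylases had median log2 differences of 0.06 in DKO against Tcf1KO and 0.02 in Id2KO against Ctrl. Hdac7, the class IIa member known from thymocytes, was at 2.05, 2.25 and 2.11 FPKM in Id2KO and at 1.74, 1.45 and 1.37 FPKM in Ctrl. The groups did not overlap, and the difference of 0.32 ± 0.17 on the log2 scale was not called (limma adjusted p = 0.603). Hdac5 averaged 0.386 ± 0.0474 FPKM in DKO, 0.453 ± 0.0868 in Id2KO, 0.610 ± 0.368 in Tcf1KO and 1.03 ± 0.615 in Ctrl (SD, n = 3 each), and Hdac9 was too low to be tested. Of 14 tested partners of class IIa enzymes, none was called, and Prkd2, a kinase that sends these enzymes out of the nucleus, was at 17.8, 27.2 and 24.6 FPKM in Id2KO and at 13.9, 15.03 and 14.7 FPKM in Ctrl (limma adjusted p = 0.31). Mef2a, a MEF2 factor gene, was lower without overlap, at 7.38, 8.45 and 5.55 FPKM in Id2KO and 9.52, 9.21 and 10.4 FPKM in Ctrl (log2 difference of -0.41 ± 0.16, limma adjusted p = 0.433).

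**Figure D4:**
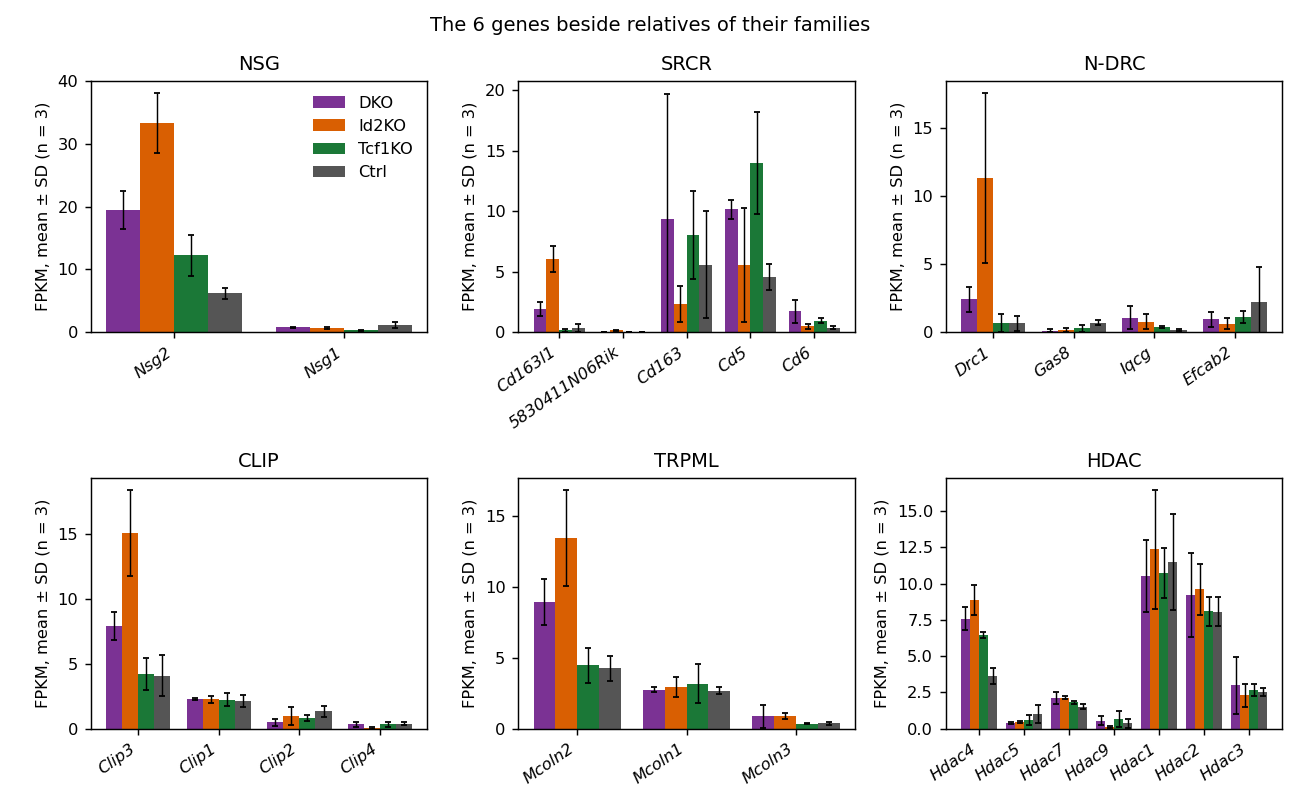
Mean FPKM with its SD (vertical axis, from 0, n = 3) of each of the 6 genes (first in its panel) and named relatives, with DKO, Id2KO, Tcf1KO and Ctrl left to right. The first gene has the highest Id2KO bar of its panel for 5 of the 6, and Hdac4 is the exception, with Hdac1 and Hdac2 above it. Among the receptors, Cd163 and Cd5 have higher bars than Cd163l1 in the other 3 groups. Lgals3bp, of the same family list, is not drawn, and its Id2KO mean of 47.4 FPKM was above the 6.03 FPKM of Cd163l1.

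Among the Id and E protein genes, Id3, an inhibitor of the same E proteins, rose in Id2KO against Ctrl. It was at 11.7, 25.8 and 16.0 FPKM in Id2KO and at 1.70, 2.93 and 1.66 FPKM in Ctrl, a log2 difference of 2.56 ± 0.33 (SE, limma adjusted p = 0.0102). That call was lost without Ctrl replicate 1 (limma adjusted p = 0.0506), without the 3 libraries of lowest array weight (0.097), with the lineage score as a term (0.182) and in a fit of the compared groups alone (0.0976). In DKO it was at 10.3, 9.72 and 15.4 FPKM, against 2.45, 4.72 and 5.78 FPKM in Tcf1KO, which did not overlap and did not pass (log2 difference of 1.30 ± 0.33, limma adjusted p = 0.347). The E protein gene Tcf3 differed by -0.21 ± 0.16 in DKO against Tcf1KO and Tcf12 by 0.10 ± 0.14, and neither was called.

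The genes whose levels followed those of each member most closely over the 12 libraries were found by Pearson's r of log2(FPKM + 1), as a description, since the 12 points share 4 groups and their libraries. For Nsg2 they were Rps6 (r = 0.961), Hdac4 (0.929) and Eef1g (0.921), and for Hdac4 they were Nsg2 (0.929), Cd3d (0.908) and Cxcr3 (0.892). Drc1 and Clip3 were each other's closest gene (0.953), and Cd163l1 stood among the nearest 3 of both (0.920 and 0.907). Cd163l1 itself was closest to Trp53 (0.958), Ighm (0.927) and Mif (0.924), and Mcoln2 to Cd27 (0.953), Ighm (0.938) and Rras2 (0.937). Ighm, the constant region gene of the IgM heavy chain, recurred for 3 members. It was at 254, 278 and 250 FPKM in DKO, at 392, 411 and 345 FPKM in Id2KO, at 162, 197 and 149 FPKM in Tcf1KO, and at 246, 160 and 164 FPKM in Ctrl, so DKO lay above Tcf1KO in every library (log2 difference of 0.63 ± 0.18, limma adjusted p = 0.392).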

How the data were processed

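Total RNA libraries of 12 sorted NK samples were made with Nugen's Ovation Ultralow system and sequenced on a NextSeq500, per the labels' protocols. The deposited values are FPKM made by the authors. Per the submitters' processing notes, edgeR (no version), HTSeq 0.6.1, TopHat2 2.1.0 and Trimmomatic 0.33 were used with mm10. Their roles, the strand setting and the length used for each gene are not given in the sources used here. For Hdac4 and Cd163l1, the lengths that the values imply (7224 and 6891 bases) differ from the exon lengths in GENCODE M21 (15813 and 3851), so levels compared between genes are relative to the authors' lengths.

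The log2 values used here were computed from the deposited FPKM after adding a pseudocount of 1, keeping genes that reached FPKM 1 in at least 3 libraries. limma 3.58.1 (R 4.3.3) fitted 1 linear model of group to all 12 libraries, with a trend in the eBayes variance and two-sided tests, Benjamini-Hochberg adjustment over 12384 genes and a threshold of 0.05. The procedure was tested on simulated data. Whole reads were recovered from the FPKM steps (99.99% of the implied library size in each library). They served for depth, for voom, and for the read counts and the limits at 0 reads given above and below. Symbols matched 32919 of the gene IDs, positions came from GENCODE M21, and promoter windows from RefSeq. Tables and figures were made with matplotlib 3.10.9, numpy 2.4.6 and pandas 2.3.3 in Python 3.11.15.

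The 6 genes and the lists of relatives and cell markers were chosen with earlier results of these data known. Named genes were the 6, genes of those lists, Tcf7, the Id and E protein genes including Id2, and for each of the 6 the 3 tested genes of highest Pearson r, with Gm and Rik names and receptor segments passed over. The settings varied were the pseudocount, the filter on low values, median scaling, weights per library, a block for the replicate number, a fit of the compared groups alone, voom, and leaving out each library. Added after seeing the data were the lineage score as a term, leaving out the 3 libraries of lowest array weight, and voom with mitochondrial ribosomal RNA left out of the library size.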

Additional observations from a re-analysis of the deposited data

How the results depend on the processing

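In DKO against Tcf1KO, all 144 refitted differences of the 6 genes were positive and none passed the threshold. Their adjusted p ranged from 0.0652 for Cd163l1 to 1.0 for Drc1 and Hdac4 over 24 settings each, 3 of them chosen after seeing the data. Cd163l1 differed by 3.26 with a pseudocount of 0.1 and 5.19 with voom, and Drc1 by 2.04 and 2.36. The number of genes called among all tested was 7. It was 4 with a pseudocount of 0.1, 4 with no filter, 4 with a filter at FPKM 5, 1 when only the compared groups were fitted, 2 with voom, 2 with voom without mitochondrial ribosomal RNA, and 2 without the 3 libraries of lowest array weight. Leaving out 1 library at a time gave 0 to 7, with 0 without DKO replicate 3, Tcf1KO replicate 1 or Tcf1KO replicate 3. With the replicate block it was 15, and none of the 6 genes was called. Same-numbered DKO and Tcf1KO libraries deviated together weakly (correlations of 0.20, 0.08 and 0.27), though each correlated best with its own number. The sample titles give the numbers without stating a pairing, so the main fit did not pair samples. Whether same-numbered libraries share a batch was not tested. Of 576 refitted values of the described contrasts, 31 moved beyond 1 SD of the replicates. A change of sign was counted only where the main difference exceeded 1 SD, and 0 such changes were found. Sign changes of smaller differences were not counted. The number of libraries limits precision, and for Cd163l1 and Drc1 the few reads in Tcf1KO and Ctrl do as well.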

Other observations

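Most genes next to the 6 stayed below 1 FPKM. The nearest gene downstream of Cd163l1, 5830411N06Rik, which RefSeq also lists as Scart2, starts 16138 bases away and had 17, 26 and 19 reads in Id2KO (0.149 ± 0.0435 FPKM, SD, n = 3), against 1 read in all of Ctrl. It had 0 reads in each DKO and each Tcf1KO library (a count of 0 allows up to 3 reads), whereas Cd163l1 stayed above 1 FPKM in DKO. Mcoln3, a channel gene 8026 bases from Mcoln2, averaged 0.861 ± 0.818 FPKM in DKO, 0.902 ± 0.211 in Id2KO, 0.352 ± 0.0517 in Tcf1KO and 0.371 ± 0.127 in Ctrl, without overlap between Id2KO and Ctrl. Selenoi, a phospholipid synthesis gene 8960 bases from Drc1, averaged 2.87 ± 0.687 FPKM in DKO, 2.77 ± 0.745 in Id2KO, 1.92 ± 0.245 in Tcf1KO and 1.57 ± 0.402 in Ctrl. Otof, which ends 366 bases from Drc1 on the other strand, had 42 reads in DKO, 81 in Id2KO, 10 in Tcf1KO and 3 in Ctrl, summed over 3 libraries each. The strand setting of the counts is not given, so reads from the end of one gene cannot be told apart from those of the other. Alkbh6, 349 bases from Clip3, averaged 2.56 ± 0.869 FPKM in DKO, 1.56 ± 0.198 in Id2KO, 2.48 ± 1.31 in Tcf1KO and 2.47 ± 0.371 in Ctrl. Twist2 and Lpar3, neighbours of Hdac4 and Mcoln2, were at 0 in all 12 libraries.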
